A study of Mus musculus with 6 samples.

Results

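Retinoic acid, the active form of vitamin A, is made from retinol in a pair of oxidation steps and destroyed by hydroxylation, and 9 genes of these steps were followed in mouse epidermis. They were Rdh10 and Dhrs9, whose enzymes oxidise retinol to retinal, Dhrs3, whose enzyme reduces retinal back to retinol, and Aldh1a1, Aldh1a2 and Aldh1a3, whose enzymes oxidise retinal to retinoic acid. Crabp1 and Crabp2 encode retinoic acid binding proteins and Cyp26b1 a cytochrome P450 that inactivates retinoic acid. The 9 genes were taken by symbol from 41214 gene identifiers, and each symbol matched 1 identifier. They were chosen by their CPM values in ko against wt, so the values of that comparison are given as a description and no test is read from them.

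The libraries came from trypsin-treated skin of C57BL/6 mice at postnatal day 4, with 3 wild-type (wt) libraries and 3 libraries labelled ARPC4 ko, written ko throughout for that label. ARPC4 is a subunit of the Arp2/3 complex, which builds branched actin networks. The series title places the knockout in the epidermis and names a psoriasis-like disease and hyperactive Nrf2. The labels give neither the allele nor the driver of the deletion, and do not say whether the libraries came from separate animals, so spreads and p-values cover only the variation between these libraries. The targeted gene itself, Arpc4, was read at 72.6, 82.5 and 73.1 CPM in wt and 67.6, 65.6 and 64.5 CPM in ko, a ratio of 0.866 that edgeR did not call (log2 fold change -0.21, SE 0.10, adjusted p = 0.469). Gene-level counts therefore do not show a loss of its transcript in the libraries labelled ko, and whether the reads lie outside a deleted part was not tested, so every direction given for ko rests on the labels. Replicates 1 and 2 of each group carry the same date in their titles and replicate 3 of each carries none.

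Retinoic acid acts by binding the nuclear receptors RAR, which sit on DNA as partners of RXR and switch target genes on. Skin keratinocytes take up retinol, store it as esters and make retinoic acid, and an excess of it is known to thicken the epidermis and to alter cornification. Dhrs3, Crabp2 and the Cyp26 genes are themselves known retinoic acid targets in several tissues, which gives the pathway a feedback arm. CRABP2 is known to hand retinoic acid to RAR in the nucleus, whereas FABP5 can deliver it to another nuclear receptor, PPAR delta.

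Promoter windows are shown for 3 of the 4 genes whose wt and ko libraries did not overlap, because the data below set them apart from the rest. RefSeq (GRCm38.p6) held windows of 300 bases, with 250 before and 50 after a start site, for 6 of the 9 genes. Rdh10, Aldh1a3 and Crabp2 had none. The windows lie at chr2:69380212-69380511 for Dhrs9, chr19:20601718-20602017 for the downstream start of Aldh1a1, and chr4:144892577-144892876 for Dhrs3, all on the plus strand. Capitals mark every match, on either strand, to the letters searched: the retinoid receptor hexamer AGGTCA with its variants GGTTCA or AGTTCA as well as GGGTCA, the antioxidant core TGACNNNGC, the AP-1 site TGANTCA, the TATA box as TATAAA, and the CCAAT box.
Dhrs9: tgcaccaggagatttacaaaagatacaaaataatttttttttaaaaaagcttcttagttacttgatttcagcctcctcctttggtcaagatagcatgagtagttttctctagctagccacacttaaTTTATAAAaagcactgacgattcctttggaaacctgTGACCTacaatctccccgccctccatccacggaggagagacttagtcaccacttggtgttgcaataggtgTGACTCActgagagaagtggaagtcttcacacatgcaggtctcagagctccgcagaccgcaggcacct
Aldh1a1: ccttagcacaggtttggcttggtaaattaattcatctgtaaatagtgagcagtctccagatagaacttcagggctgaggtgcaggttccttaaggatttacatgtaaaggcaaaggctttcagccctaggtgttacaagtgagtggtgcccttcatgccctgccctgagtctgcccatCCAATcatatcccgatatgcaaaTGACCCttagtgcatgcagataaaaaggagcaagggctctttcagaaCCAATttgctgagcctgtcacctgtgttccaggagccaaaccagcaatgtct
Dhrs3: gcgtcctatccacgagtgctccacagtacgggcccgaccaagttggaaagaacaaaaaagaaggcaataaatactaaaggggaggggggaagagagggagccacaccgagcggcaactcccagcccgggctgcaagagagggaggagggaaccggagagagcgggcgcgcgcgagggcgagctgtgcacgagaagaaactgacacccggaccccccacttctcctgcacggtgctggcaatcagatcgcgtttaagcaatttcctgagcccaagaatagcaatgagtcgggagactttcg

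In the Dhrs9 window the hexamer AGGTCA lay on the minus strand at bases -88 to -83 from the start (printed as TGACCT), and TGACTCA, an AP-1 match that reads as AP-1 on both strands, lay at -18 to -12. TATAAA lay there at -122 to -117 on the plus strand and at -124 to -119 on the minus strand. In the Aldh1a1 window GGGTCA lay on the minus strand at -49 to -44 (printed as TGACCC), with CCAAT at -72 to -68 and at -2 to 3. The Dhrs3 window, at the most upstream of its 3 starts in the table, held none of the letters searched, whereas the windows of its other starts, not shown, held CCAAT. The upstream window of Aldh1a1, also not shown, held TGACTCA at -57 to -51. The antioxidant core was found in 1 of the 9 windows of these genes, that of Aldh1a2, also not shown. Among 32851 promoters of the table AGGTCA was found in 16.3%, GGGTCA in 13.7%, any of the 4 hexamers in 43.7%, the AP-1 letters in 7.81% and CCAAT in 37.4%. TATAAA was found in 13.6% and the antioxidant core in 12.4%. Paired hexamers spaced as DR1, DR2 or DR5, the arrangements on which RAR and RXR bind as partners, occurred in 0.222, 0.268 and 0.0974% of promoters and in 0 of the 9 windows of these genes. A match is a run of letters and not a measured site.

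Expression was counted as reads per gene. Counts assigned to genes ran from 17561294 to 22659511 per library. Levels are given in CPM, the count scaled to library size (edgeR, TMM), and, between genes, in RPKM, CPM per kilobase of exon. The suprabasal keratins that define the labelled tissue dominated the libraries, with Krt1 between 31500 and 70330 CPM, and the basal keratin Krt5 was present at 846.0 to 5443 CPM. The summed level of 10 basal keratinocyte genes varied within both groups, from 2130 to 10640 CPM in wt and from 3411 to 12210 CPM in ko, and was highest in replicate 3 of each. Markers of other cell types also differed: 11 fibroblast genes summed to 69.5, 138.1 and 182.3 CPM in wt and to 613.6, 787.3 and 187.2 CPM in ko replicates 1 to 3, and none of the 11 was at 0 in any library. Endothelial genes, 9 in all, summed to 3.78 to 4.58 CPM in wt and to 20.9, 24.0 and 11.7 CPM across the ko libraries. Sebocyte genes, 6 in all, summed to 366.8, 449.5 and 222.4 CPM in wt and to 205.4, 158.8 and 174.4 CPM across the ko libraries. In such bulk libraries fewer cells of a type and less RNA per cell cannot be told apart.

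The retinal dehydrogenase Aldh1a3 and the retinol dehydrogenase Dhrs9 stood several-fold higher in ko, while Aldh1a1 stood at 0.314 of its wt level and Dhrs3 somewhat lower. Crabp2, the most abundant of the 9, and Rdh10, Cyp26b1 and Crabp1 overlapped between the genotypes. Aldh1a2 was barely detected. Of the 8 genes with enough reads to enter the fit, 2 lay higher in every ko library than in any wt library, against 11.3% of 13704 genes tested, and 2 lay lower, against 8.03%. At least 2-fold higher were 2 of the 8 (4.71% of all genes) and at least 2-fold lower 1 (2.27%). With edgeR 0 of the 8 passed the adjusted threshold of 0.05, where 0.219% of all genes were called higher and 0% lower. DESeq2 called Aldh1a3 and Dhrs9 higher (2.71% of all genes higher, 1.38% lower), and so did edgeR with a term for dated titles (3.2% higher, 1.98% lower). Since this contrast chose the genes, nothing is read from these counts.

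**Figure D1:**
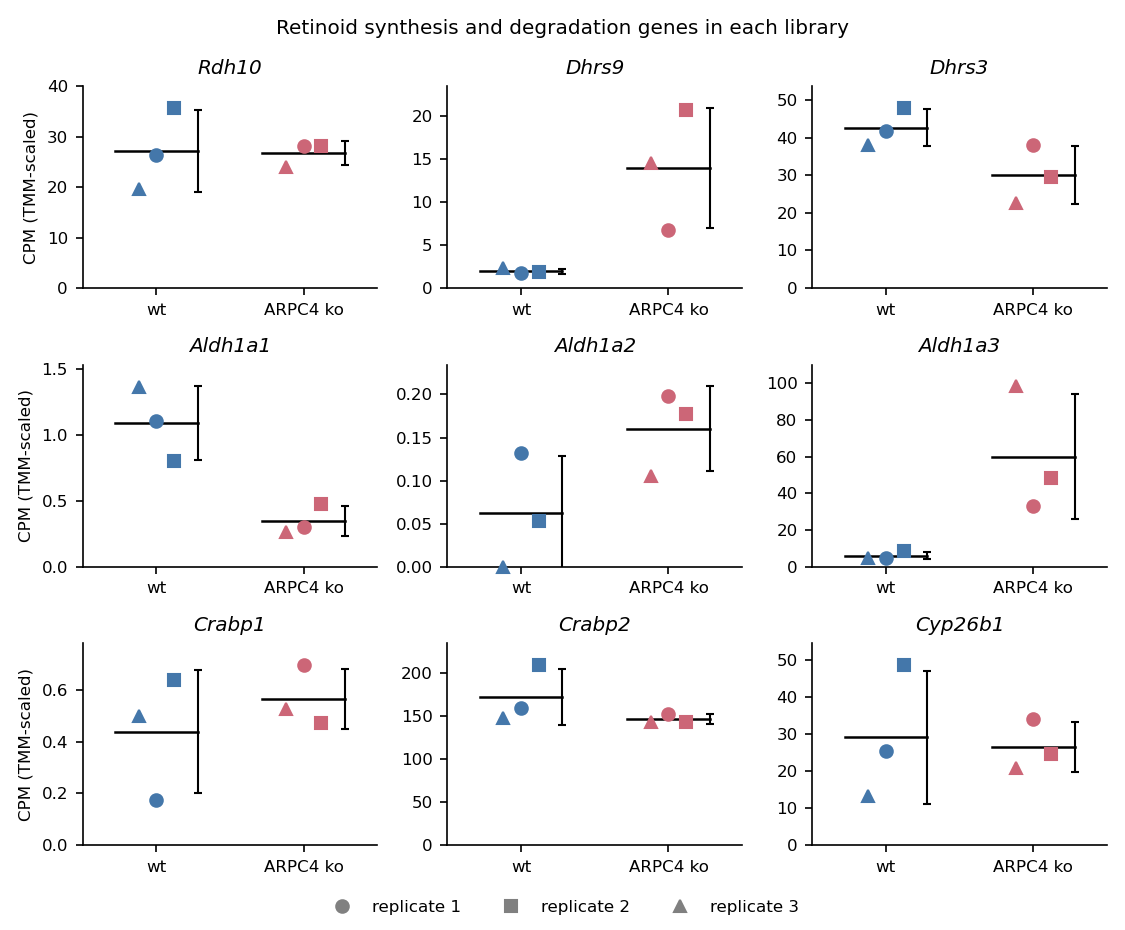
Level of each of the 9 genes in CPM (vertical axes, linear from 0) in 3 wt (blue) and 3 ARPC4 ko (red) libraries, with symbols for replicates 1 to 3, a line at the group mean and a bar of 1 SD (cut at 0 for Aldh1a2). Dhrs9 and Aldh1a3 are higher and Dhrs3 and Aldh1a1 lower in every ko library than in any wt library, and the other 5 genes overlap.

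Rdh10 (ENSMUSG00000025921, mm10 chromosome 1, 16105774 to 16133734, plus strand), whose enzyme is known above all for making retinal in the embryo, was the more abundant of the pair of retinol dehydrogenases among the 9 genes. Its level was 26.4, 35.8 and 19.6 CPM in wt replicates 1 to 3 and 28.2, 28.2 and 24.1 CPM in ko replicates 1 to 3. The ko libraries all lay within the wt range, and the means were 27.3 ± 8.14 and 26.8 ± 2.36 CPM (SD, n = 3; log2 fold change -0.02, SE 0.22). Without wt replicate 2, the highest library, the value was 0.22, and without wt replicate 3, the lowest, it was -0.23.

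Dhrs9 (ENSMUSG00000027068, chromosome 2, 69380445 to 69404533, plus strand) encodes a short-chain dehydrogenase that accepts retinol. It was measured at 1.72, 1.86 and 2.31 CPM across the wt libraries versus 6.71, 20.7 and 14.6 CPM across the ko libraries. All wt libraries lay close together and the ko libraries spread over a 3.09-fold range above them. Group means were 1.96 ± 0.311 and 14.0 ± 7.01 CPM, a 7.09-fold ratio in the fit (log2 fold change 2.83, SE 0.44). Among the dated libraries the ratio of means was 7.66, and between the undated ones it was 6.33. Among the ko libraries Dhrs9 was highest in replicate 2 and lowest in replicate 1. In ko replicates 1 to 3 the fibroblast sums were 613.6, 787.3 and 187.2 CPM and the endothelial sums 20.9, 24.0 and 11.7 CPM. The part of these cell types in the Dhrs9 difference was not tested. Rdh10 made up 93.0 ± 2.89% of the summed RPKM of Rdh10 and Dhrs9 in wt and 67.5 ± 12.1% in ko.

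Dhrs3 (ENSMUSG00000066026, chromosome 4, 144892827 to 144928209, plus strand) works against these enzymes. Values were 41.9, 48.0 and 38.2 CPM in wt and 38.0, 29.6 and 22.7 CPM across the ko libraries. The groups were separated by a narrow gap, since ko replicate 1 lay just under wt replicate 3. Means were 42.7 ± 4.97 and 30.1 ± 7.67 CPM (log2 fold change -0.50, SE 0.20), and the ratio of ko to wt was 0.752 among the dated and 0.595 between the undated libraries. The share of Rdh10 in the summed RPKM of Rdh10 and Dhrs3 was 30.7, 34.4 and 26.5% in wt and 34.3, 40.1 and 42.7% in ko, so ko replicate 1 fell inside the wt range.

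Aldh1a3 (ENSMUSG00000015134, chromosome 7, 66390890 to 66427517, minus strand) differed most. It stood at 4.80, 8.30 and 4.90 CPM across the wt libraries versus 33.3, 48.3 and 98.5 CPM across the ko libraries. Every ko library exceeded every wt library, and ko replicate 3 was the highest. The means of 6.00 ± 1.99 and 60.0 ± 34.1 CPM gave a 10.03-fold ratio in the fit (log2 fold change 3.33, SE 0.46). This size leaned on the undated pair: the ratio was 6.23 among the dated libraries and 20.1 between the undated ones, and the log2 fold change was 2.73 without ko replicate 3 and 2.62 in the dated libraries alone. In ko replicate 3, where Aldh1a3 was highest, the summed fibroblast and endothelial markers (187.2 and 11.7 CPM) were the lowest of the 3 ko libraries. The summed basal (12210 CPM) and proliferating (586.0 CPM) markers were the highest of all 6. Melanocyte markers, 6 in all, summed to 74.0, 69.6 and 61.6 CPM in wt and 79.5, 92.7 and 128.1 CPM in ko, so their groups did not overlap and ko replicate 3 was again highest. Of these 6 genes, 2 were higher in every ko library than in any wt library (11.3% of all genes tested). The part of these cell types in the Aldh1a3 difference was not tested.

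Aldh1a1 (ENSMUSG00000053279, chromosome 19, 20492715 to 20643465, plus strand) lay on the other side at a much lower level. It had 25, 15 and 30 reads in wt and 6, 8 and 5 in ko, or 1.101, 0.798 and 1.36 CPM against 0.298, 0.473 and 0.262 CPM. No ko library reached the lowest wt library. The fitted ratio was 0.314 (means 1.09 ± 0.282 and 0.345 ± 0.113 CPM; log2 fold change -1.67, SE 0.39), and with so few reads counting error is a large part of each value. Sebocyte markers summed lower in every ko library than in any wt library as well, with 4 of 6 genes below every wt library (8.03% of all genes tested). Merkel cell markers, 4 in all, summed to 5.02, 3.19 and 5.31 CPM in wt and 2.34, 1.89 and 1.52 CPM in ko. Krt8 and Krt18 were the 2 of these 4 genes that lay below every wt library in every ko library (8.03% of all genes tested). Atoh1 and Krt20, with at most 20 reads in any library, overlapped between the genotypes and were not tested. The part of both cell types in the Aldh1a1 difference was not tested.

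Aldh1a2 (ENSMUSG00000013584, chromosome 9, 71215789 to 71296243, plus strand) had 3, 1 and 0 reads in wt and 4, 3 and 2 in ko and stayed under the filter on low counts. A count of 0 in wt replicate 3 allows up to 0.136 CPM at 3 reads, so no difference was detectable at this depth.

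Per kilobase of exon the class of retinal dehydrogenases summed to 1.32, 1.98 and 1.34 RPKM in wt and to 7.36, 10.6 and 21.4 RPKM in ko. Aldh1a3 supplied 78.7, 90.7 and 79.4% of the sum in wt and 98.0, 98.4 and 99.5% in ko. Aldh1a1 supplied 16.9, 8.15 and 20.6% in wt and 0.821, 0.902 and 0.248% in ko. Thus Aldh1a3 was the main transcript of the class in both genotypes. Relative to Cyp26b1, the degrading enzyme, the summed dehydrogenases stood at 27.7, 21.8 and 53.3% of its RPKM in wt and at 115.7, 230.1 and 550.6% in ko.

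**Figure D2:**
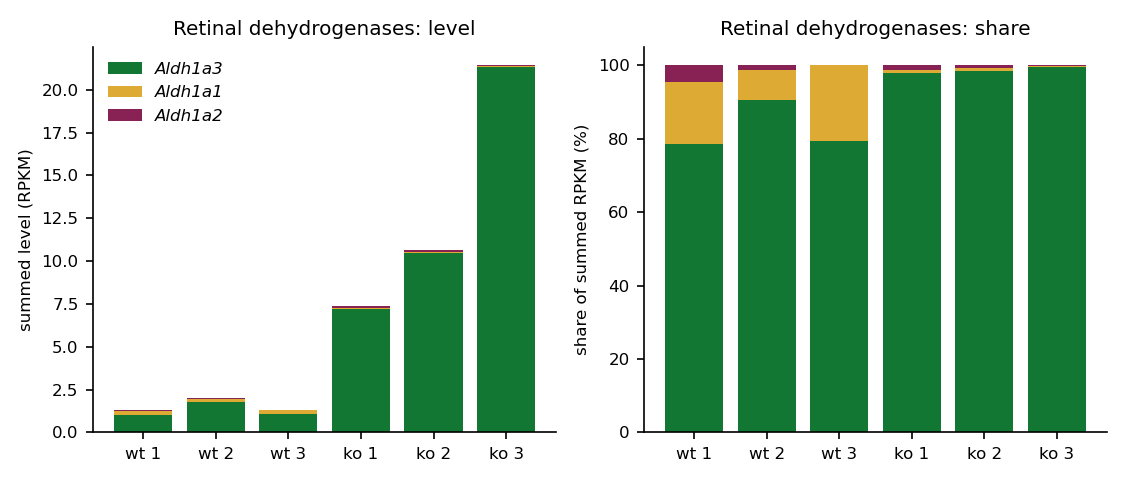
Summed level of Aldh1a3, Aldh1a1 and Aldh1a2 in RPKM (left, stacked bars from 0) and the share of each in the sum in % (right), per library. The sum lies between 1.32 and 1.98 RPKM in wt and between 7.36 and 21.4 RPKM in ko, and Aldh1a3 holds the largest share in all 6 libraries.

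The binding proteins differed in level far more than between genotypes. Crabp2 (ENSMUSG00000004885, chromosome 3, 87948666 to 87953376, plus strand) was measured at 158.5, 209.1 and 148.0 CPM across the wt libraries versus 152.5, 142.9 and 142.9 CPM across the ko libraries. Only wt replicate 2 stood apart, and without it the log2 fold change of -0.23 (SE 0.16) became -0.07. Means were 171.9 ± 32.6 and 146.1 ± 5.55 CPM. Crabp1 (ENSMUSG00000032291, chromosome 9, 54764748 to 54773110, plus strand) had between 4 and 14 reads per library, or 0.176 to 0.638 CPM in wt and 0.473 to 0.696 CPM across the ko libraries (log2 fold change 0.41, SE 0.49; -0.03 without wt replicate 1). Crabp2 made up 99.6 ± 0.200% of the summed RPKM of both in wt and 99.4 ± 0.105% in ko.

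Cyp26b1 (ENSMUSG00000063415, chromosome 6, 84571414 to 84593908, minus strand) clears retinoic acid. It lay at 25.5, 48.8 and 13.4 CPM across the wt libraries versus 34.1, 24.7 and 20.8 CPM across the ko libraries. The wt libraries spread 3.63-fold and enclosed all ko libraries, so the means of 29.2 ± 18.0 and 26.5 ± 6.80 CPM differed by less than the spread (log2 fold change -0.14, SE 0.45). Without wt replicate 2 the value was 0.45 and without wt replicate 3 it was -0.51. The highest wt library of Rdh10, Dhrs3, Aldh1a3, Crabp1, Crabp2 and Cyp26b1 alike was replicate 2, the library with the lowest summed basal genes.

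The order of levels in wt ran from Crabp2 at 130.0 ± 24.7 RPKM (SD, n = 3) through Dhrs3 at 14.6 ± 1.70, Rdh10 at 6.55 ± 1.96, Cyp26b1 at 5.46 ± 3.36 and Aldh1a3 at 1.30 ± 0.431 RPKM to Crabp1 at 0.546 ± 0.296, Dhrs9 at 0.459 ± 0.0726, Aldh1a1 at 0.220 ± 0.0570 and Aldh1a2 at 0.0273 ± 0.0294 RPKM. Neighbours whose libraries overlapped were Rdh10 and Cyp26b1, and Crabp1 and Dhrs9. In ko Aldh1a3 came after Crabp2, at 13.0 ± 7.39 and 110.5 ± 4.20 RPKM, and its libraries overlapped those of Dhrs3 at 10.3 ± 2.62 RPKM. Rdh10 at 6.44 ± 0.568, Cyp26b1 at 4.96 ± 1.27 and Dhrs9 at 3.27 ± 1.64 RPKM followed, each overlapping the next. Crabp1 at 0.704 ± 0.145 RPKM stood above Aldh1a2 at 0.0708 ± 0.0217 and Aldh1a1 at 0.0698 ± 0.0228 RPKM, which overlapped. With the longest transcript as length, Aldh1a1 rather than Dhrs9 ranked higher in wt (0.461 against 0.459 RPKM), and Aldh1a1 ranked above Aldh1a2 in ko (0.146 against 0.0708 RPKM).

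Other genes whose levels followed the same course over the 6 libraries were found by the root mean square difference between log2 CPM profiles, each centred on its own mean, among 9945 genes of at least 5 CPM. For Aldh1a3 the nearest were the lipoxygenase gene Alox8 (0.34), the serpin Serpinb3c (0.40) and the stress keratin Krt6a (0.51), where the median gene differed by 1.69. For Dhrs9 they were the ETS factor Elk3 (0.34), Serpinb3c (0.38) and the cornified envelope precursor Sprr1b (0.38), against a median of 1.42. Aldh1a3 and Dhrs9 differed from each other by 0.61. For Aldh1a1 near profiles, among 9946 genes, included Hoxd8 (0.26) and Dpysl3 (0.34), against 0.80. Dhrs3 was nearest to N4bp3, Gdpd2 and Barx2 (0.04 each, median 0.40), Crabp2 to Mlf2, Ybx3 (0.04 each) and Mboat7 (0.05, median 0.28), and Rdh10 to Nfe2l3, Wfdc5 and Snx9 (0.05 each, median 0.32). Cyp26b1 was nearest to Slc43a2 (0.18), 4921536K21Rik (0.19) and Lypd5 (0.20, median 0.60), and Crabp1 to Nrp2 (0.23), Arhgap9 (0.24) and Wnt5a (0.26, median 0.55). Profiles of genes with flat levels are close to many others, so small differences there single out little. The profiles also hold the ko and wt values by which the 9 genes were chosen. For Aldh1a3, Dhrs9 and Aldh1a1 the difference between genotypes is a large part of the profile. Genes with a like log2 fold change therefore lie near Aldh1a3 and Dhrs9 (Alox8 3.16, Serpinb3c 3.36, Krt6a 3.53, Elk3 2.67, Sprr1b 3.07). The median gene lies far from them for the same reason, and nothing is read from these distances.

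**Figure D3:**
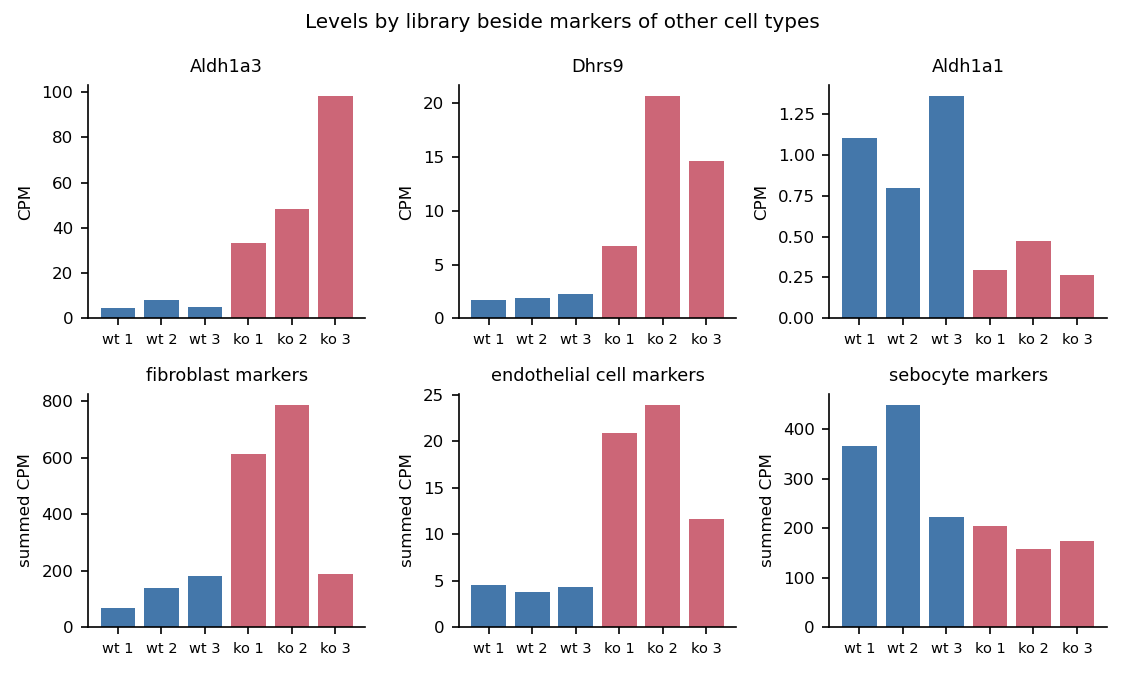
Levels of Aldh1a3, Dhrs9 and Aldh1a1 in CPM (top) and summed CPM of the fibroblast, endothelial and sebocyte marker lists (bottom) in each library, wt in blue and ko in red, bars from 0. The fibroblast and endothelial sums are lowest among ko in replicate 3 (187.2 and 11.7 CPM), and the sebocyte sum is lower in every ko library than in any wt library.

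The remaining genes of the pathway were compared to see which steps around these genes differed between the genotypes. Of 81 listed genes 80 were in the files and 64 had enough reads to be tested. With edgeR 0 of the 64 passed over all genes (Benjamini-Hochberg), while an unadjusted p under 0.05 was met by 9 on the higher side and 8 on the lower (14.1 and 12.5%, against 7.98 and 5.25% of all genes). DESeq2 called 6 higher and 2 lower, against 2.71 and 1.38% of all genes. Among these were Hbegf, Areg, Akr1b8, Fabp5 and Rbp2, higher in ko, and Awat2 and Dhrs7, lower in ko. Their DESeq2 adjusted p ran from 2.25e-05 (Hbegf) to 0.0183 (Dhrs7), and the adjusted p values in the paragraphs below are from edgeR. An edgeR fit with a term for dated titles called 6 higher (9.38%, against 3.2% of all genes) and 3 lower (4.69%, against 1.98%). The 64 had a median log2 fold change of 0.00, against 0.02 over all genes tested, with 32 above and 32 below 0. The ko libraries all exceeded the wt libraries in 10 genes and all stayed under them in 10 (15.6% each, against 11.3 and 8.03%). The lists were chosen with earlier results of these data known, so these shares are a description and not a test of the pathway.

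Among genes of retinol supply and storage, carriers and esterifying enzymes had values on both sides of 0, none past the edgeR threshold. Rbp2, a carrier of retinol and retinal, stood at 110.4, 138.6 and 102.8 CPM across the wt libraries versus 178.6, 249.6 and 200 CPM across the ko libraries (log2 fold change 0.84, SE 0.18, edgeR adjusted p = 0.121). The groups did not overlap. Lrat, which esterifies retinol for storage, had a value of 1.13 (SE 0.42, adjusted p = 0.324), with a ratio of 1.38 among the dated and 4.21 between the undated libraries. Awat2, an acyltransferase of sebocytes that can also esterify retinol, stood at 43.8 ± 9.32 and 18.8 ± 4.6 CPM (-1.22, SE 0.24, adjusted p = 0.0988), and Bco1, which cleaves beta-carotene to retinal, at 5.17 ± 1.05 and 2.94 ± 0.577 CPM (-0.80, SE 0.26, adjusted p = 0.256). Awat2 is itself in the sebocyte list, whose sum was lower in every ko library. Of the 13 genes tested in this list 3 were above 0 and 10 below, with a median of -0.11.

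Other enzymes that interconvert retinol and retinal lay on both sides, 8 above and 9 below 0. Sdr16c5 and Sdr16c6, epidermal retinol dehydrogenases, were more abundant per length than any of the 9 genes, at 281.6 ± 40.2 and 185.9 ± 32.2 RPKM in wt and 190.3 ± 60.1 and 137.2 ± 16.0 RPKM in ko. Their log2 fold changes were -0.57 (SE 0.26, adjusted p = 0.428) and -0.44 (SE 0.18, adjusted p = 0.349). Dhrs7, a short-chain dehydrogenase, stood at 76.0 ± 6.09 and 53.0 ± 4.45 CPM (-0.52, SE 0.12, adjusted p = 0.133) and Adh7, an alcohol dehydrogenase active on retinol, at -0.57 (SE 0.19, adjusted p = 0.269). Rdh1, Rdh11 and Rdh12 had values of -0.35, -0.32 and -0.21 (adjusted p from 0.512 to 0.801). On the other side Akr1b8, an aldo-keto reductase that can reduce retinal and is a known Nrf2 target, stood at 1.67, 0.426 and 2.36 CPM across the wt libraries versus 4.52, 7.63 and 14.6 CPM across the ko libraries (2.55, SE 0.63, adjusted p = 0.155). Rdh16 had a value of 0.82 (SE 0.25, adjusted p = 0.221). The 17 genes tested in this list had a median of -0.21. Of the other retinoic acid hydroxylases Cyp26c1 had no reads, Cyp26a1 had at most 0.176 CPM in any library and Cyp2s1 had a value of -0.15 (SE 0.37, adjusted p = 0.915).

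Among receptors, Rxra and Rarg were the abundant forms, at 63.5 ± 6.5 and 50.9 ± 1.06 RPKM in wt and 62.5 ± 8.57 and 44.4 ± 3.97 RPKM in ko. Their log2 fold changes were -0.02 (SE 0.16, adjusted p = 0.973) and -0.20 (SE 0.12, adjusted p = 0.57), and Rxrb had -0.08 (adjusted p = 0.812). Rarb, itself a classic retinoic acid target, stood at 3.79, 5.37 and 3.85 CPM across the wt libraries versus 3.43, 2.19 and 2.78 CPM across the ko libraries (-0.62, SE 0.27, adjusted p = 0.399), each ko library below each wt library. Fabp5 stood at 671.5, 786.9 and 578.5 CPM across the wt libraries versus 1193, 2047 and 1241 CPM across the ko libraries (1.14, SE 0.26, adjusted p = 0.136), again without overlap. Per length it stood at 190.3 ± 29.3 RPKM in wt, above Crabp2. The 9 coactivators and corepressors had a median of 0.07, with Med1 at 0.34 (SE 0.12, adjusted p = 0.308), Crebbp at 0.16, Ncor1 at 0.12, Ep300 at 0.09, Ncoa1 at -0.05 and Ncoa2 at -0.08.

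Genes known to be induced by retinoic acid lay on both sides of 0. Of 16 tested 11 were above and 5 below 0, with a median of 0.12. The growth factor genes Hbegf and Areg, ligands of the EGF receptor, had the smallest p values. Hbegf stood at 67.4, 72.5 and 90.5 CPM across the wt libraries versus 153.5, 154.9 and 208.4 CPM across the ko libraries (1.17, SE 0.18, adjusted p = 0.0688), and Areg at 15.5, 16.5 and 17.6 CPM against 31.4, 36.1 and 52.2 CPM (1.27, SE 0.20, adjusted p = 0.0783). Lrat, given above, also had an unadjusted p under 0.05. Rarres1, a retinoid-responsive gene at 199.4 ± 35.6 and 163.1 ± 32.0 CPM, had a value of -0.29 (SE 0.20, adjusted p = 0.618). Differentiation genes that retinoic acid is known to lower in keratinocyte culture were split, 3 above and 3 below 0. Krt1, Krt10 and Tgm1 had values of 0.39, 0.28 and 0.28, Ivl -0.01, Lor -0.63 and Krt2 -1.85 (adjusted p from 0.403 to 0.996). The size of the Krt2 value leaned on wt replicate 3, which had 163 of its reads against 36 and 26 in the other wt libraries, and was -0.64 without it. The Krt2 ratio of ko to wt was 0.394 among the dated libraries and 0.227 between the undated ones. With a term for dated titles edgeR called Krt2 lower (-1.74, adjusted p = 0.029), although its wt and ko libraries overlapped.

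**Figure D4:**
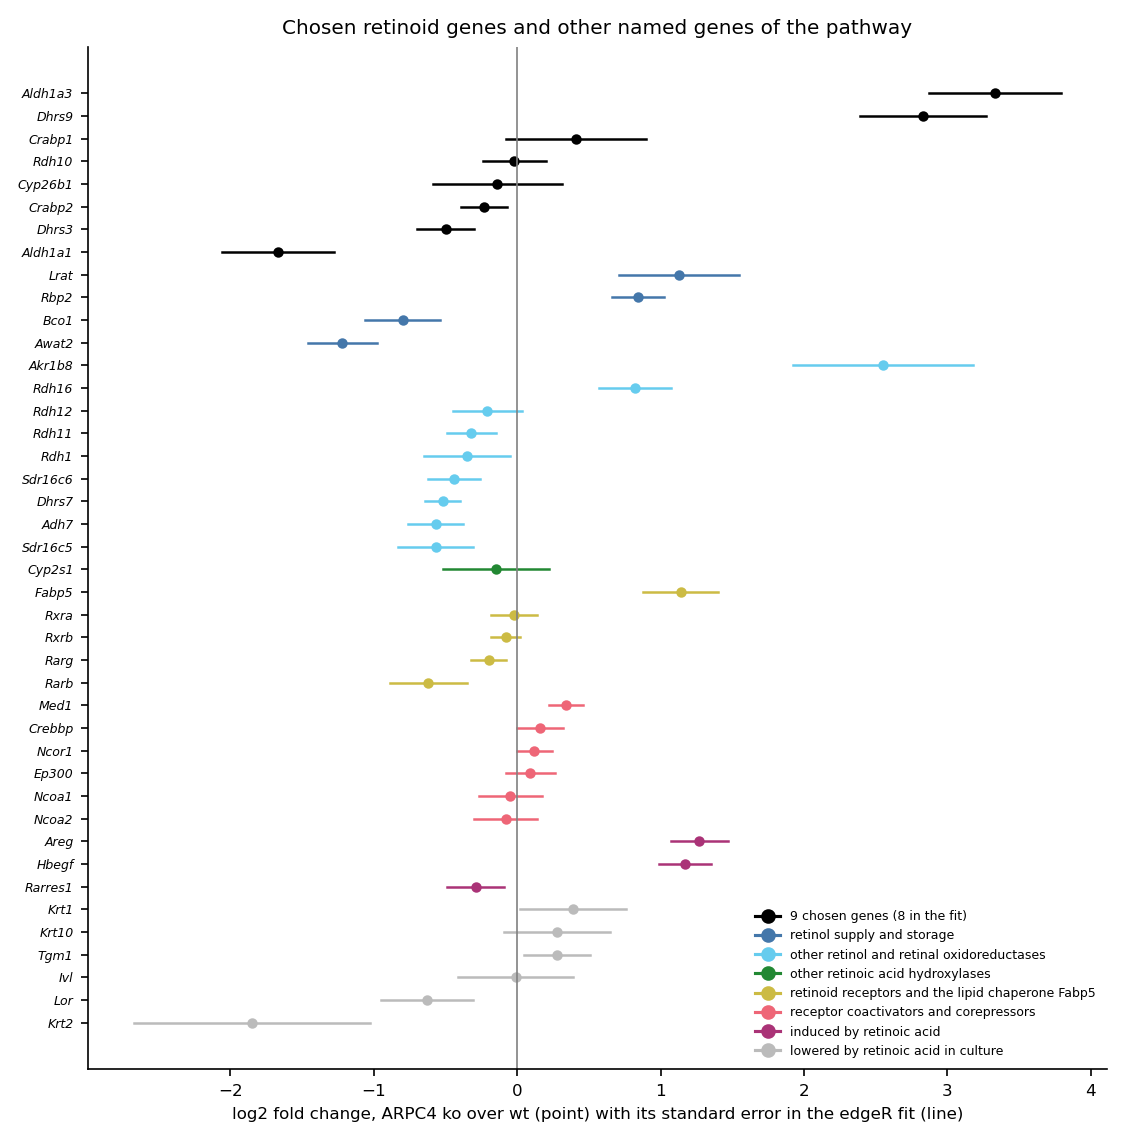
Log2 fold change of ARPC4 ko over wt (horizontal axis) with its SE (line) for the 8 of the 9 genes that entered the fit (black) and for the other named genes of the pathway, coloured by list. Aldh1a3 (3.33), Dhrs9 (2.83) and Akr1b8 (2.55) lie farthest to the right. Aldh1a1 (-1.67) and Krt2 (-1.85, or -0.64 without wt replicate 3 and -1.74 with a term for dated titles) lie farthest to the left.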

How the data were processed

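RNA from 3 wt and 3 ARPC4 ko epidermis samples was sequenced with a stranded poly(A) kit, per the labels' protocols. The deposited counts are reads per Ensembl gene, not normalized. TopHat2 2.0.12, Bowtie 1.1, HTSeq and mm10 are named in the submitters' processing notes. Which annotation and strand setting were used is not given in the sources used here, but no exon of the 9 genes overlaps another gene in GENCODE M21 (GRCm38, the assembly of mm10). Library sizes and tests leave out reads not assigned to a gene. Shares were taken of the sum of the assigned counts and the tallies given here. Non-unique alignments made up 32.4 to 40.9%, ambiguous reads 0.38 to 0.499% and reads that matched no counted feature 0.341 to 0.377%. Reads that close paralogs share would fall among the non-unique ones, so counts of such genes are uncertain. Symbols and exon lengths matched 40254 of 41214 identifiers. Of the listed genes, Flg and Trdc were not analysed here.

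Groups follow the genotype label, and replicate numbers follow marks in the titles (I, II, and Tryp as 3). Replicates differed by more than counting error (chi-square over its degrees of freedom, 24.4 to 105.5). Genotypes were compared with edgeR 4.0.16 (R 4.3.3): filterByExpr (13704 genes), TMM scaling, robust glmQLFit with its own dispersion estimate, glmQLFTest on group alone and Benjamini-Hochberg adjustment over all genes tested, at 0.05. Each SE was derived from the fold change and its F statistic. DESeq2 1.42.0 and limma-voom (limma 3.58.1) were alternatives, beside other scalings and filters, a replicate block, a covariate for dated titles, the dated libraries alone and each library left out. The code was checked on simulated counts. Profiles used log2 CPM with a prior count of 2.

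The 9 genes and all lists were chosen with earlier results of these data known. The text names all 9 genes and, from each pathway list, genes past the threshold, the 4 with the smallest p and any of at least 100 CPM. It also names the 3 nearest profiles of each gene. Some genes that this rule picks are not reported here. Arpc4, Cyp26a1, Cyp26c1, Krt5, Krt8, Krt18, Atoh1, Krt20 and marker sums fall outside this rule and were added after their values were seen.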

Additional observations from a re-analysis of the deposited data

How the results depend on the processing

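The number of genes past the threshold depended on the processing. Over all genes it was 30 and became 57 without a filter on low counts, 18 with a filter of 1 CPM in 3 libraries, 642 with DESeq2, 0 with limma-voom (1748 at an unadjusted p under 0.05), 709 with a covariate for dated titles and 227 in the dated libraries alone. It ran from 0 to 64 with 1 library left out, with 0 without wt replicate 1, 2 or 3 or ko replicate 2, where 1229 to 2350 genes had an unadjusted p under 0.05. Among the other genes of the pathway it was 0 and became 8 with DESeq2, 9 with the title as a covariate and 3 (Areg, Awat2, Hbegf) in the dated libraries alone, and it stayed 0 with each library left out (11 to 19 at an unadjusted p under 0.05). Among the 9 genes it was 0 and became 1 (Dhrs9) without a filter, where 57 of 22318 genes passed. It was 2 with DESeq2 (642 of 15696 genes) or the title as a covariate (709 of 13704). In the dated libraries alone it was 1 (Aldh1a3), where 227 of 13812 genes passed. With each library left out it ran from 0 to 1. Dhrs9 passed without ko replicate 1 (29 of 13957 genes) and Aldh1a3 without ko replicate 3 (64 of 13990). This contrast chose the 9 genes, so nothing is read from their counts. The cause of the changes in number was not tested.

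The replicate numbers were not taken to pair the libraries in the main fit, since the labels do not state a pairing. The deviations of wt and ko replicate 1 from their group means had a correlation of -0.19 (0.47 and 0.67 for replicates 2 and 3). Those of wt replicate 2 correlated best with ko replicate 1 (0.51). Deviations within a group of 3 are tied together, so these correlations cannot decide whether libraries were paired. With a replicate block 354 of 13704 genes passed. Of these, 4 were other pathway genes (Areg, Fabp5, Hbegf, Rbp2) and 2 were Aldh1a3 and Dhrs9, which had been chosen by this contrast.

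Over the alternatives that gave a value, the log2 fold change ran from 2.62 to 3.63 for Aldh1a3, 2.44 to 3.16 for Dhrs9, -0.71 to -0.37 for Dhrs3 and -1.94 to -1.35 for Aldh1a1. Aldh1a1 and Crabp1 gave none under the filter of 1 CPM. Scaling moved the median of all genes by at most -0.04. The share of Aldh1a3 in its class in wt was 82.9%, and 76.9% with the longest transcript as length. Values near 0 changed sign without a call. With 1 library left out Cyp2s1 ran from -0.39 to 0.12, Rxra from -0.12 to 0.05, Ncoa1 from -0.26 to 0.06, Ncoa2 from -0.26 to 0.08, Ivl from -0.36 to 0.27 and Ep300 from -0.07 to 0.16. Counting error limits Aldh1a1, Aldh1a2 and Crabp1, at 30 reads or fewer per library.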
